A study of Mus musculus with 10 samples.

Results

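The regions described here belong to Atp2a2, Sln and Pln, the genes of the cardiac sarcoplasmic reticulum calcium pump SERCA2 and of its inhibitors sarcolipin and phospholamban. A region was taken when it overlapped the span of a member gene in the RefSeq annotation of mm10, or when it lay outside every protein-coding span with a member as the nearest gene within 100 kb. This gave 13 of the 10010 regions listed, namely 8 for Atp2a2, 4 for Sln and 1 for Pln. All 12 regions of Atp2a2 and Sln were more accessible in Tbx5G125R than in Control atrial cardiomyocyte nuclei, by 1.35-fold to 2.19-fold. In contrast, the Pln region, which also lies within the span of Cep85l, was 2.55-fold less accessible. The direction depended on the scale for Atp2a2 region 1 and Sln region 2 alone among the 13, both of which fell slightly below 0 under 1 or more scales that put the table's median region near 0. The calls depended on it more widely. With each animal set to that median region, 3 of the 12 regions stayed called higher (edgeR), and 0 of the 4 Sln regions. All listed regions had been selected as different between the genotypes.

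Accessibility was measured by ATAC-seq, in which a transposase cuts and tags open chromatin, in nuclei from both atria of each mouse, pooled. Tbx5G125R animals carried the G125R point mutation, made with CRISPR-Cas9, in 1 copy of the T-box transcription factor gene Tbx5 in every cell, and were compared with Control animals, with 4 animals per genotype at 8 to 12 weeks of age. Sex, strain and the Control genotype beyond its name are not given in the labels. In both groups, cardiomyocyte nuclei were selected by flow sorting on PCM1, a protein of centriolar satellites that collects around them. Control animals 1 and 3 each had 2 libraries, which were summed.

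SERCA2 pumps calcium out of the cytosol into the sarcoplasmic reticulum after each beat, so it sets how fast the muscle relaxes and how much calcium is stored for the next contraction. Phospholamban lowers the pump's affinity for calcium until it is phosphorylated by protein kinase A or by calcium/calmodulin-dependent kinase. Sarcolipin is a shorter peptide of the same kind, and in the mouse heart it is found chiefly in the atria.

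The deposited table holds no region that the authors found alike in both genotypes, so every entry differs by construction. The highest count of any library at any listed region was 995 reads, and whether stronger regions were left out is not stated. Summed over the listed regions, reads per animal ran from 1716962 to 2414261 in Tbx5G125R and from 630392 in Control animal 2 to 2776475 in Control animal 3, and full library depths are unknown. All 8 marker genes of atrial cardiomyocytes checked had listed regions, 32 in all, each higher in Tbx5G125R, though 11 fell below 0 with animals set to the table's median region. Their scaled counts, as defined below, summed to 11047 to 12746 per Tbx5G125R animal and 7086 to 7499 per Control animal. Of other cell types, 2 of 4 fibroblast genes (Dcn and Dpt) had 3 higher regions, with sums of 483 to 548 in Tbx5G125R and 301 to 350.5 in Control, and 1 of 3 endothelial genes (Pecam1) had 1, at 224 to 274 in Tbx5G125R and 147 to 205 in Control. In smooth muscle, 1 of 3 genes (Myh11) had 1, at 159 to 189 in Tbx5G125R and 83.3 to 150.2 in Control, and no region was listed for 3 leukocyte genes. Of these 5 regions, 2 fell below 0 on the table's own median. A gene without a listed region may still be open in both groups, so these counts do not measure purity, and the part of other cell types in the results below was not tested.

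Among the 3 members, Pln is the one whose listed region was less accessible in Tbx5G125R. The Pln promoter window in RefSeq (GRCm38.p6, chr10:53337436-53337735, plus strand) is printed because it locates the Pln region against the start of the gene. The window runs from 250 bases before the annotated start to 50 after it, and promoters of Atp2a2 and Sln were not used here, 1 of the 3 members having matched.
Pln promoter: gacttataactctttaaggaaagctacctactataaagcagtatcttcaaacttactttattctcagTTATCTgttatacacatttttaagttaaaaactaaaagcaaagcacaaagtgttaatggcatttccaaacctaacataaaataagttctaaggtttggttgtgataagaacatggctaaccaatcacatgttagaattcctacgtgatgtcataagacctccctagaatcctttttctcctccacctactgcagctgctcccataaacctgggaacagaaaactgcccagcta
Capitals mark the single match, on the reverse strand, to AGATAA, the letters of a GATA motif, which 11.2% of 32851 RefSeq promoters of the same length hold on either strand. Nothing on either strand matched the T-box core AGGTGT (13.7% of promoters), the MEF2 motif (3.69%), the SP motif GGGCGG (35.7%) or the KLF motif CACCC (57.5%). With 1 match in the window, no motifs overlapped. The Pln region began 1766 bp beyond the end of this window, so the promoter itself was not part of the listed region.

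Phospholamban's gene spans 53337686 to 53345999 on chromosome 10, inside the longer span of Cep85l, which encodes a centrosomal protein. The listed region (53339501 to 53348500, 9000 bp) overlapped 6499 bp of Pln, or 78.2% of the gene, and ran 2501 bp past its end, all of it still within Cep85l. It was the longest region listed as less accessible, and 2 longer ones in the table were both higher. The table names 1 bin of 500 bp for each region, here 53346001 to 53346500, which begins 2 bp past the end of Pln. Whether the counts cover the whole region or that bin is not stated in the sources used here, so counts are not compared per length.

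The Pln region had 79.5, 79.7, 71.5 and 76.3 scaled counts in the 4 Tbx5G125R animals, against 188, 169, 183 and 239.5 in the 4 Control animals. A scaled count is the read count divided by a factor for the animal, which sets animals of 1 genotype to the same median region. The groups were far apart, with the lowest Control animal 89.6 scaled counts above the highest Tbx5G125R animal. The mean was 76.7 ± 3.86 in Tbx5G125R and 195 ± 30.7 in Control (SD, n = 4 each), a log2 fold change of -1.35 ± 0.14 (SE; edgeR quasi-likelihood test, adjusted p = 1.8e-08 over all 10010 regions). In sorted nuclei, a smaller share of nuclei with open chromatin and a smaller opening in each nucleus cannot be told apart.

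The zero point between the genotypes cannot be read from a table of called regions alone. It was set so that regions higher and regions lower in Tbx5G125R reached the same limit of p-values, which a single cut-off by the authors would leave. On this scale 100% of the 10010 regions passed an adjusted p of 0.05, 88.4% higher and 11.6% lower, so that the calls of 12 higher and 1 lower member regions were fixed by the listing. Adjusted p-values and SEs were likewise computed within these selected regions alone, and are given as descriptions. The groups of animals did not overlap at any of the 13 regions, beside 90.3% of all regions (81.0% higher and 9.28% lower), and all 13 also passed an adjusted p of 0.01, beside 99.9% of the table. Setting each animal to the table's median region in place of this zero point lowers every log2 fold change by 0.61, and 3 of the 12 regions then stay called higher.

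**Figure D1:**
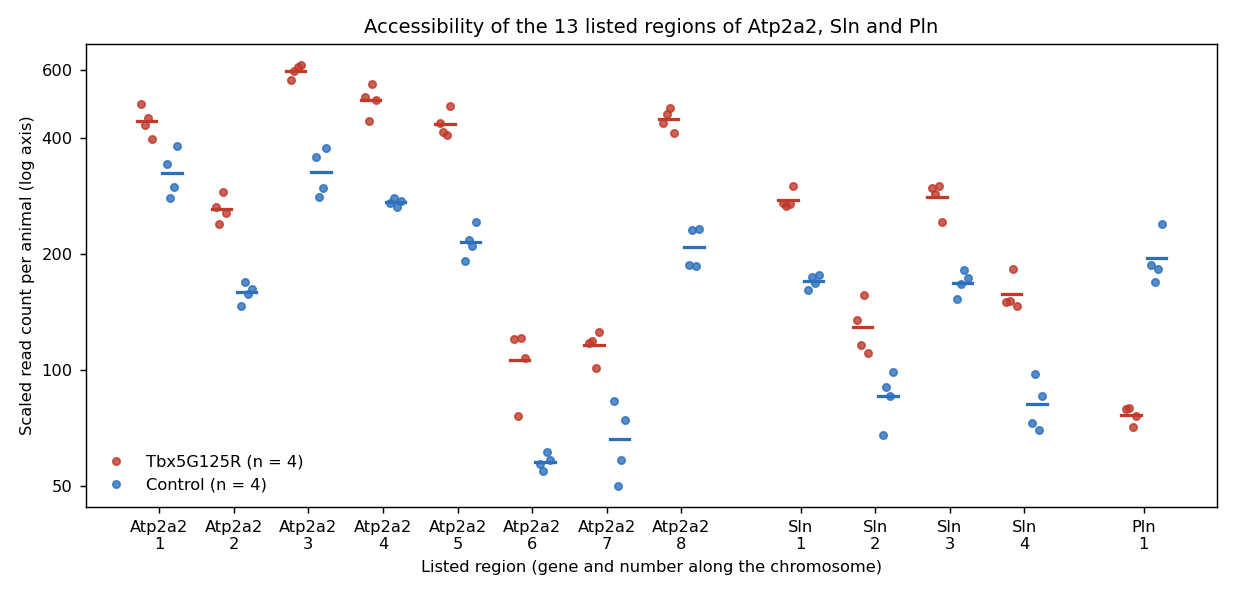
Scaled read count of each animal (log axis) at the 8 regions of Atp2a2, the 4 of Sln and the 1 of Pln, with Tbx5G125R left of Control at each region, points for animals and lines for means (n = 4 each). The groups do not overlap at any of the 13 regions, and on this scale the Pln region is the only one of them with the Tbx5G125R animals below the Control animals (Atp2a2 region 1 turns to -0.18 on the log2 scale when animals are set to the table's median region).

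The contrast of Pln with its partners did not need the zero point, since reads of 1 animal can be set against each other. The Pln region held 2.05%, 2.17%, 1.79% and 2.02% of the reads of the 13 regions in the Tbx5G125R animals, against 8.25%, 7.49%, 8.24% and 9.30% in the Control animals. The share was thus lower in every Tbx5G125R animal, with means of 2.01% ± 0.16 in Tbx5G125R and 8.32% ± 0.74 in Control (SD, n = 4 each). Against the Atp2a2 region that covers the upper end of the gene (region 3), the Pln region had 0.129 ± 0.010 reads per read in Tbx5G125R and 0.596 ± 0.048 in Control. Against the Sln region inside the gene (region 3), the ratio was 0.275 ± 0.032 in Tbx5G125R and 1.16 ± 0.18 in Control. These ratios follow from directions fixed by the listing and carry no test.

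**Figure D2:**
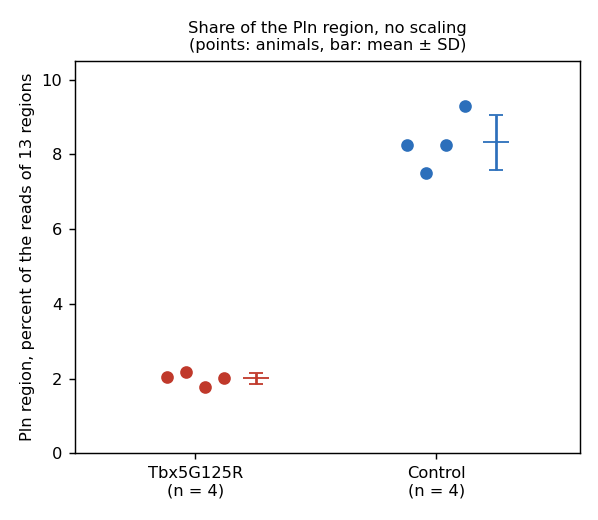
Reads of the Pln region as a percent of the reads of the 13 regions in each animal, with no scaling between animals, for Tbx5G125R (left) and Control (right), points for animals and bars for the mean ± SD (n = 4 each). The 4 Tbx5G125R animals lie between 1.79% and 2.17%, below the 4 Control animals at 7.49% to 9.30%.

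Within the 1164 lower regions of the table, the size of the Pln change lay at percentile 85.3, beside a median log2 fold change of -1.05 (quartiles -1.22 and -0.92), and 6.94% of all listed regions were at least 2-fold lower. The Control level of the region was at percentile 71.0 of all regions. No other region was listed within 200 kb of Pln, whereas the windows around Atp2a2 and Sln held several. Absence from the listing does not show equal accessibility there.

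The pump gene Atp2a2 spans 122453513 to 122502225 on chromosome 5, and its 8 regions are numbered along the chromosome. The annotation table used here carries no strand, so places are given against the lower and the upper end of the span. Neither end is thereby named as the start of transcription. Region 1 (122451751 to 122452500) lay 1013 bp below the lower end, while no region was listed over most of the gene body. Regions 2 (122498251 to 122500750) and 3 (122501001 to 122502250) lay over the few kilobases of the span nearest its upper end, which region 3 covered. The other 5 lay beyond the upper end, region 4 (122502501 to 122504500) 276 bp from it, region 5 (122508001 to 122510500) 5776 bp, region 6 (122513501 to 122514250) 11276 bp, region 7 (122518251 to 122519250) 16026 bp and region 8 (122520251 to 122522000) 18026 bp. When all annotated genes, not only protein-coding ones, could be the nearest, regions 5 to 8 went to Gm22965 or 1700040P09Rik, which left 4 regions for Atp2a2.

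Region 3, at the upper end, had the highest mean of the 8 in Tbx5G125R, whereas in Control its mean (327 ± 45.9 scaled counts) and that of region 1 (325 ± 45.7) differed by less than their SD. It had 567, 596, 612 and 618 scaled counts in the Tbx5G125R animals, against 356, 281, 296 and 376 in the Control animals. Every Tbx5G125R animal was above every Control animal, with a gap of 191 scaled counts between the nearest. Its log2 fold change was 0.86 ± 0.093 (SE; edgeR, adjusted p = 2.6e-08). The neighbouring region 4 had 512, 444, 552 and 502 scaled counts in Tbx5G125R animals, against 271, 279, 266 and 275 in Control animals, with a log2 fold change of 0.89 ± 0.092 (adjusted p = 1.3e-08). Control animals lay close together there, with a coefficient of variation of 2.07%, beside 8.92% in Tbx5G125R.

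The largest difference at Atp2a2 was at region 8, the farthest from the gene. It had 437, 461, 477 and 412 scaled counts in the Tbx5G125R animals, against 188, 231, 186 and 232 in the Control animals. With a log2 fold change of 1.13 ± 0.10 (2.19-fold, adjusted p = 1.4e-09), it lay at percentile 87.7 of the 8846 higher regions. Region 5 was the other one past 2-fold, with 439, 414, 408 and 483 scaled counts in Tbx5G125R animals, against 192, 217, 209.8 and 242 in Control animals (log2 fold change 1.03 ± 0.10, adjusted p = 4.8e-09). Of all listed regions, 16.1% were at least 2-fold higher.

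The smallest difference was at region 1, the only listed one below the gene. It had 491, 431, 449.8 and 398 scaled counts in the Tbx5G125R animals, against 342, 279, 299 and 381 in the Control animals. The groups nearly met, the lowest Tbx5G125R animal being 1.04 times the highest Control animal. The log2 fold change of 0.43 ± 0.10 (adjusted p = 2.8e-04) was at percentile 4.76 of the higher regions, and on the table's own median it became -0.18 (adjusted p = 0.23). The ratio of reads at region 8 to reads at region 1, a pair picked after their values were seen, was 1.01 ± 0.083 in Tbx5G125R and 0.652 ± 0.12 in Control (SD, n = 4 each). Its lowest Tbx5G125R value was 0.890 and its highest Control value 0.83. The pair being the largest and the smallest fold change of the gene, this ratio is a description with no test.

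Region 2 had 262 ± 21.1 scaled counts in Tbx5G125R and 159 ± 9.44 in Control (log2 fold change 0.74 ± 0.11, adjusted p = 2.6e-06). The remaining regions were weaker ones. Region 6 had 121, 76.0, 121 and 107 scaled counts in Tbx5G125R animals and 57.1, 54.8, 61.6 and 58.6 in Control animals (0.86 ± 0.18, adjusted p = 1.3e-04), with Tbx5G125R animal 2 well below the other three. Region 7 had 116 ± 10.1 scaled counts in Tbx5G125R and 66.5 ± 15.0 in Control (0.77 ± 0.17, adjusted p = 2.4e-04). The lowest read numbers behind these values were 23 and 21 reads at regions 6 and 7 in Control animal 2, the animal with the fewest reads.

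The 8 regions thus differed 5.64-fold in Control level, while their fold changes stayed within 1.35 to 2.19. Their median log2 fold change was 0.86, beside 0.68 for all 8846 higher regions (quartiles 0.55 and 0.90), and 7 of the 8 were above that median. With each animal set to the table's own median, 7 of 8 stayed above 0, beside 54.8% of all regions. Regions 4, 5 and 8 were called higher, beside 8.55% of all regions. These shares stand for 5482 and 856 regions, all from the 8846 higher ones, so among higher regions alone both shares are larger. The values there were 0.27 (adjusted p = 0.034), 0.42 (0.0018) and 0.51 (1.7e-04).

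Sarcolipin's gene is short, spanning 53850251 to 53853849 on chromosome 9, and 3 of its 4 regions lay over it. Region 1 (53834751 to 53835750) was 14501 bp below the lower end, region 2 (53849751 to 53851250) covered the lower end, region 3 (53851751 to 53852750) lay inside, and region 4 (53853501 to 53854500) covered the upper end.

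Region 4 changed most. It had 150.0, 151, 183 and 147 scaled counts in the Tbx5G125R animals, against 73.2, 97.8, 69.9 and 85.9 in the Control animals. All Tbx5G125R animals were higher, animal 3 standing above the other three. The log2 fold change was 1.00 ± 0.15 (adjusted p = 2.4e-06).

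Inside the gene, region 3 had 297, 286, 300.5 and 242 scaled counts in Tbx5G125R animals, against 153, 167, 182 and 173 in Control animals, a log2 fold change of 0.74 ± 0.11 (adjusted p = 2.6e-06). Region 1, away from the gene, was alike in level and change, with 272, 266, 269 and 299.6 scaled counts in Tbx5G125R animals and 161, 174, 168 and 177 in Control animals (0.71 ± 0.11, adjusted p = 2.2e-06). The change was smallest at region 2, which had 135, 116, 157 and 111 scaled counts in Tbx5G125R animals and 67.8, 90.6, 85.6 and 98.9 in Control animals (0.62 ± 0.16, adjusted p = 8.8e-04). The groups came close at region 2, with the lowest Tbx5G125R animal 1.12 times the highest Control animal.

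The median log2 fold change of the Sln regions was 0.72, and 3 of the 4 were above the median of the higher regions. On the table's own median their values ran from 0.01 to 0.39, and 0 of the 4 were called higher by edgeR, or by edgeR with TMM factors over the table, region 4 being the 1 region with an unadjusted p under 0.05 in both. The share of the reads of the 13 regions that fell in Sln regions was 22.1% ± 0.67 in Tbx5G125R and 21.7% ± 1.62 in Control, while that of Atp2a2 was 75.9% ± 0.62 in Tbx5G125R and 70.0% ± 1.29 in Control (SD, n = 4 each). The shares of the 3 genes sum to the whole, and that of Pln was 2.01% in Tbx5G125R and 8.32% in Control. A higher Atp2a2 share therefore does not by itself show a gain of Atp2a2 over Sln.

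**Figure D3:**
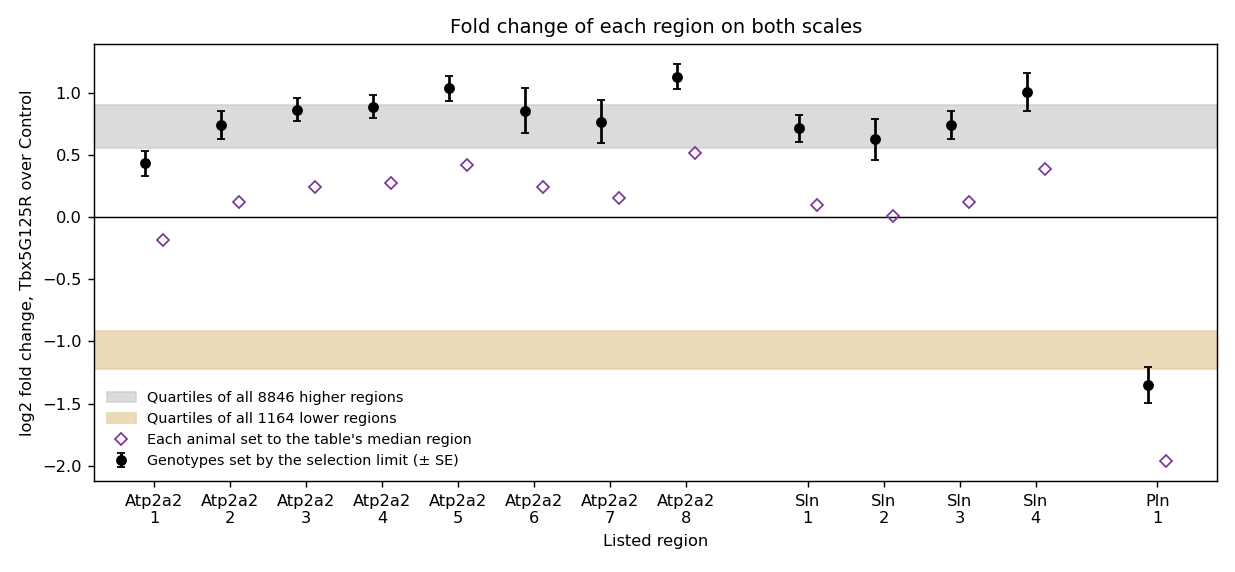
Log2 fold change (Tbx5G125R over Control) of each region of Atp2a2, Sln and Pln. Black points and bars are the value ± SE on the scale set by equal 95th percentiles of p-values. Open diamonds are the value with each animal set to the median region of the table. Shaded bands are the quartiles of all higher regions (0.55 to 0.90) and all lower regions (-1.22 to -0.92), and the Pln point at -1.35 lies below the lower band while Atp2a2 region 1 lies under the upper band.

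Neighbouring genes showed whether the direction was shared along each chromosome. Within 200 kb of Atp2a2, 10 further regions were listed, assigned to Pptc7, Rad9b, Vps29, Arpc3, Anapc7 and Ift81, and all were higher (log2 fold changes 0.48 to 1.13), 7 of them also on the table's own median. The first region beyond those of Atp2a2, at 122523751 to 122528250 and 4500 bp long, overlapped Ift81, a gene for a protein of ciliary transport, and was therefore not counted for the pump. It had 813 ± 97.8 scaled counts in Tbx5G125R and 391 ± 34.1 in Control (1.05 ± 0.092), a log2 fold change near that of region 8 beside it at a higher level. Around Sln, 4 regions of Cul5 and Slc35f2 were listed, all higher (0.46 to 0.85), 2 of them also on the table's own median. In a table with 88.4% of its regions higher, these directions do not set either locus apart.

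**Figure D4:**
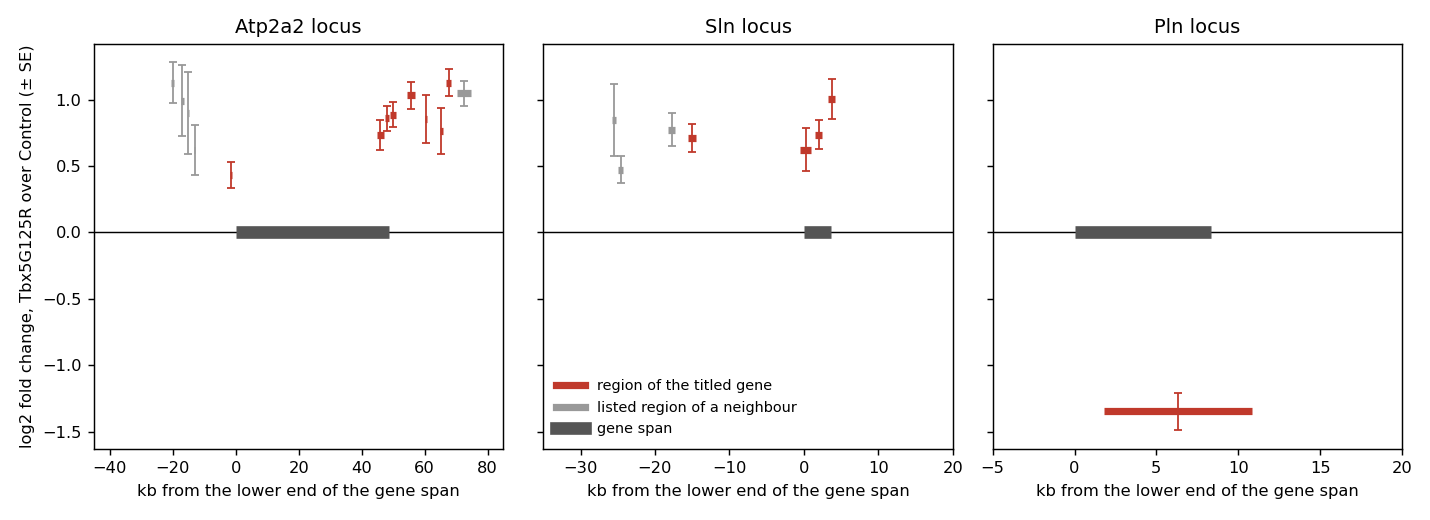
Log2 fold change ± SE (vertical axis) of listed regions near Atp2a2, Sln and Pln against the distance in kb from the lower end of the gene span, with red bars as wide as the regions for those of the titled gene, light grey bars for regions of neighbours and a dark bar for the gene. Regions of Atp2a2 cluster at and beyond the upper end of the gene, those of Sln lie over the gene with 1 at a distance, and Pln has 1 long region below 0.

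Across the 8 animals, levels at the regions of Atp2a2 were correlated with a median Pearson r of 0.90 over 28 pairs (0.78 to 0.99), and those of Sln with 0.92 over 6 pairs (0.83 to 0.94). The Pln region ran opposite to the other 12, with a median r of -0.93 (-0.97 to -0.74). These values reflect the genotype difference, since with the group means removed the medians were 0.14 within Atp2a2, 0.20 within Sln and 0.17 for Pln with the others. Regions of 1 animal share its library and depth, so the values are a description.

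Other genes of the pathway were taken as lists, of which 18 of 39 annotated genes had a listed region, beside 27.8% of 21900 protein-coding genes. Their 34 regions were 26 higher and 8 lower, and 17 of the 26 fell below 0 on the table's own median. Of 7 other calcium pump genes, Atp2b1, a pump of the plasma membrane, had 3 higher regions (log2 fold changes 0.48 to 0.82) and the other SERCA genes had none listed. Of the small peptides other than phospholamban and sarcolipin that act on SERCA, 3 of the 9 symbols looked up were annotated and none had a region.

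The list of phospholamban's kinases, phosphatases and partners held 25 of the 34 regions, from 12 of 21 genes. It also includes phosphodiesterases and a glycogen-targeting phosphatase subunit, so not every gene in it acts on phospholamban directly. Of these 25 regions 18 were higher and 7 were lower, beside 88.4% higher and 11.6% lower in the table, and the list was not tested against it. Camk2d, the main cardiac calcium/calmodulin-dependent kinase that phosphorylates phospholamban, had 2 lower regions and 1 higher. One of them (chromosome 3, 126696501 to 126697000) had 14.9 ± 5.92 scaled counts in Tbx5G125R and 42.2 ± 18.5 in Control, a log2 fold change of -1.40 ± 0.35 (edgeR, adjusted p = 5.9e-04). Pde3a, a phosphodiesterase that degrades cyclic AMP near the pump, had 3 lower and 1 higher, led by a region with 18.7 ± 5.95 scaled counts in Tbx5G125R and 44.1 ± 10.8 in Control (-1.23 ± 0.30, adjusted p = 4.7e-04). Akap7, an anchoring protein for protein kinase A at the reticulum, had 1 lower region, with 35.4 ± 5.76 scaled counts in Tbx5G125R and 81.1 ± 43.2 in Control (-1.10 ± 0.26, adjusted p = 4.0e-04). These 3 genes carried regions with low counts, whose relative spread between animals was wide.

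Pde4d, another cyclic AMP phosphodiesterase, had 2 higher regions and 1 lower. Its leading region, 40032 bp from the gene, had 46.4 ± 2.30 scaled counts in Tbx5G125R and 23.2 ± 4.81 in Control (0.98 ± 0.26, adjusted p = 0.0011). Prkaca, the catalytic subunit of protein kinase A, had 3 higher regions, and the phosphatase subunit genes Ppp1ca, Ppp1cb, Ppp1cc and Ppp2ca had 1 higher region each. Ppp1r3c, a glycogen-targeting subunit, had 4 and Camk2g, a further kinase of the calmodulin family, had 2. The larger Camk2g difference was 135 ± 18.8 scaled counts in Tbx5G125R and 70.5 ± 28.3 in Control (0.85 ± 0.19, adjusted p = 2.6e-04).

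Among genes of the calcium stores of the reticulum, 5 of 8 had regions, of which 5 were higher and 1 was lower. Casq2, cardiac calsequestrin, which binds calcium within the reticulum, had the lower one, with 19.7 ± 6.63 scaled counts in Tbx5G125R and 39.4 ± 11.9 in Control (-1.04 ± 0.31, adjusted p = 0.0023). Its groups overlapped. Calr (calreticulin), Hrc (a histidine-rich calcium-binding protein), Srl (sarcalumenin) and Tmem38a (a reticulum cation channel) had the higher ones, at 0.42 to 0.63. On the table's own median, 0 of the 26 higher regions of these lists were called higher by edgeR (0 also at an unadjusted p of 0.05, and 0 with TMM factors over the table), beside 8.55% of all regions and a larger share of the higher ones. With TMM factors, 2 of the 26 were lower at an unadjusted p under 0.05 (edgeR). The 8 lower regions of the lists stayed called lower on the table's own median, beside 12.3% of all regions, on a scale that lowers every log2 fold change.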

How the data were processed

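The submitters' processing notes name BWA, bedtools, DESeq2 and the build mm10, without versions. Duplicate removal and transposase shifts are not given in the sources used here. The authors deposited 1 table of 10010 regions called different, with a read count per library (10 libraries of 8 animals). Counts were whole except for 26 values in 4 libraries, where 0 stood as 0.1. Those deposited columns were handled as estimated counts and rounded. Deposited geometric means per group, a signal column, equalled those of the unscaled counts. The authors' deposited log2 fold change and adjusted p-value were not used.

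Counts were scaled by the median ratio within each genotype, and the genotypes by the offset that equalised the 95th percentile of unadjusted p-values of higher and lower regions. Regions were tested by edgeR 4.0.16 (R 4.3.3) without covariates at a threshold of 0.05 after Benjamini-Hochberg adjustment over the table, and the biological coefficient of variation was 11.6%. The code was tested on simulated data. Standard errors come from the test statistic. The labels number the samples within each genotype, and each number was taken as 1 animal. Between the 2 libraries of 1 animal, scaled counts at the member regions differed by a median ratio of 1.09 (26 pairs, highest 1.36). The count columns not used numbered 0. DESeq2 1.42.0 and limma 3.58.1 were alternatives, as were other scalings, filters, repeats, left-out animals and the replicate block. Regions were assigned with RefSeq (GRCm38.p6, coordinates 1-based). All member regions are named. Of the pathway lists, the 6 regions of largest absolute log2 fold change, 1 per gene, have levels. Members and lists were chosen with earlier results of these data known.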

Additional observations from a re-analysis of the deposited data

Results flagged for a closer look

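In 26 groups of 4 animals (13 regions, 2 genotypes), a single animal stood far from the other three in 2, by Dixon's test of the gap against the range, which chance flags in about 1 of 20 groups. At Sln region 1, Tbx5G125R animal 4 had 299.6 scaled counts, while the other Tbx5G125R animals had 266 to 272. At Sln region 4, Tbx5G125R animal 3 had 183 scaled counts, while the other Tbx5G125R animals had 147 to 151. Without each animal in turn, the log2 fold change ran from 0.67 to 0.73 at Sln region 1 and from 0.92 to 1.07 at Sln region 4.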

How the results depend on the processing

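The zero point between the genotypes decided most calls. With each animal set to the table's median region, higher calls numbered 3 of the member regions (12 as reported) and 856 of all regions (8846 as reported). With TMM factors over the table they numbered 3 and 805. Atp2a2 region 1 then had log2 fold changes of -0.18 and -0.20, and Sln region 2 had -0.0057 with TMM, none called. Both scales put the table's median region near 0, at 0.03 and 0.01, against 0.64 as reported. The Pln region was called lower under both. Under the other 18 settings, all 13 member regions kept their direction and their call (highest adjusted p 0.0078, edgeR). These included DESeq2, limma with a pseudocount of 0.5 or 5, a minimum of 10 reads and either treatment of the repeats. Offsets from the 90th or 99th percentile or the empty gap in fold changes moved log2 values by -0.01, 0.02 and 0.05. Apart from these offsets, the settings kept the reported zero point. The regions had also been selected as different in these same animals, so this agreement was largely fixed beforehand. Without each animal in turn, the log2 fold change ran from -1.39 to -1.24 at the Pln region, from 0.38 to 0.51 at Atp2a2 region 1 and from 1.07 to 1.19 at Atp2a2 region 8. Nearest genes among all annotated genes left 8 higher and 1 lower member regions, and a 50 kb limit left 12 and 1. An adjusted p of 0.01 left 12 and 1, and 99.9% of all regions.

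Same-numbered animals correlated, after removal of group means, at 0.17, -0.0032, 0.069 and 0.029. These low values came with no reference to judge them by, so whether same-numbered animals shared any processing was not tested. With the replicate block 12 member regions were called higher and 1 lower, with 8846 and 1164 in the table, and 2 of the 4 Tbx5G125R animals correlated best with their own number. Factors implied by the authors' pooled means were not run, since those means held no scaling. Counts as low as 21 reads in Control animal 2 limit Atp2a2 regions 6 and 7.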

Other observations

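Regions of other genes on other chromosomes whose levels followed the leading region of each member over the 8 animals were ranked by Pearson r of log2(scaled count + 0.5), as a description. For the Pln region they were regions of Mrvi1, which encodes a protein of the inositol trisphosphate receptor complex in smooth muscle (r = 0.993, log2 fold change -1.76 ± 0.23), Daam1, a formin of the actin cytoskeleton (r = 0.989, -1.30 ± 0.29), and Ammecr1 (r = 0.982, -0.77 ± 0.12). For Atp2a2 region 8 they were regions of Chst11, a chondroitin sulphotransferase (r = 0.997, 1.13 ± 0.15), Josd2, a deubiquitinase (r = 0.996, 0.73 ± 0.098), and Rtn4rl1, a Nogo receptor homologue (r = 0.995, 0.48 ± 0.14). For Sln region 4 they were regions of Kcnj6, an inwardly rectifying potassium channel (r = 0.997, 0.65 ± 0.094), BC005537 (r = 0.994, 0.52 ± 0.087) and Myl12a, a regulatory myosin light chain (r = 0.994, 0.55 ± 0.086). With 4 animals per genotype in a table of called regions, high values of r mostly reflect the shared genotype difference.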
